A study of Bos taurus with 21 samples.

Results

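The genes examined here belong to the MHC class I antigen presentation pathway: B2M, TAP1, TAP2, TAPBP, PSMB8, PSMB9, PSMB10, ERAP1 and NLRC5. The rule took them by symbol and set no threshold on their values. Of the 9 listed symbols, 8 had a row among the 13570 gene rows of the count tables, and all 8 had counts in every cow, with a lowest count of 62. NLRC5, the main transactivator of class I genes, was not analysed here because no row carries its symbol.

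RNA was sequenced from somatic cells pelleted from the milk of 21 lactating Holstein cows, 1 library per cow. The labels placed 9 cows in a high yielding group (HY) and 12 in a low yielding group (LY), and they gave the parity and lactation period of each cow together with values for milk yield, fat, protein and solid. No treatment was given, and the cows came from 1 farm. Both groups held cows of parity 2 to 4. The lactation period ran from 41 to 268 days in HY (median 168) and from 52 to 270 days in LY (median 211.5). The milk yield values of HY cows lay between 181.118 and 468.053 and those of LY cows between -404.27 and 86.92. They are normalized breeding index values, with no unit stated, rather than volumes of milk, so the groups differ in a ranked merit and not by an experimental factor. Cows are named by group and a number given in accession order.

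MHC class I molecules show short peptides from inside the cell to CD8 T cells. The proteasome cuts proteins into peptides, TAP1 and TAP2 form the transporter that carries them into the endoplasmic reticulum, ERAP1 trims them there, and TAPBP (tapasin) holds the empty class I heavy chain at the transporter until a peptide is loaded. B2M is the light chain of the class I molecule, and PSMB8, PSMB9 and PSMB10 are the catalytic subunits that replace PSMB5, PSMB6 and PSMB7 in the immunoproteasome, a form typical of white blood cells and of cells exposed to interferon. Milk somatic cells are a mixture of macrophages, neutrophils, lymphocytes and shed mammary epithelial cells.

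The libraries differed widely in composition. Counts on genes ran from 7878557 to 28541904 (median 11826889), and caseins, whey protein and keratin genes (an epithelium list) took from 0.122% to 60.6% of them. HY8 and HY9 stood apart, with the 2 highest epithelium shares (60.6% and 56.6%) and the 2 lowest TMM factors (0.460 and 0.498, against up to 1.48). Fits were therefore repeated without these cows (19 cows), and calls lost by the named members and pathway genes are given. Correlations without these cows were taken as r only, with no test, and are given for the subunit ratios. In 16 cows the read mapping rate was in a lower range and in 5 cows in a higher one, and correlations are given over the 16 as well. The 5 were HY2, LY7, LY9, LY11 and LY12, so the ranges were not spread evenly over the groups. No library was a near copy of another: comparing cows in pairs, chi-square over its degrees of freedom was at least 33.7. In bulk RNA, fewer cells of a type and less RNA per cell cannot be told apart.

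Levels are given as TMM-normalized CPM, the count of a gene scaled to a fixed library total. The counts are not divided by transcript length, so they compare cows within a gene and not genes with each other. TAP1 ran from 15.3 to 339 CPM in HY (median 130.6) and from 67.7 to 256 CPM in LY (median 125.9). TAP2, its transporter partner, ran from 16.3 to 161 CPM in HY (median 46.4) and from 19.3 to 105 CPM in LY (median 36.5). The groups overlapped for both genes. HY3 was the highest cow and HY9 the lowest for both, with TAP1 at 15.3 CPM in HY9, below the next lowest cow, HY6, at 45.7 CPM.

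TAPBP ran from 150.1 to 704 CPM in HY (median 273) and from 149.7 to 458 CPM in LY (median 256). B2M ran from 2787 to 9316 CPM in HY (median 4352) and from 1868 to 8286 CPM in LY (median 3541). For these genes too the groups overlapped, HY3 was the highest cow, and LY1 was the lowest.

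PSMB8 ran from 112.6 to 383 CPM in HY (median 225) and from 91.5 to 492 CPM in LY (median 185). PSMB9 ran from 12.2 to 97.1 CPM in HY (median 51.8) and from 14.2 to 146 CPM in LY (median 41.7). PSMB10 ran from 21.0 to 95.2 CPM in HY (median 33.4) and from 18.3 to 106 CPM in LY (median 36.6). LY12 was the highest cow for all 3 immunoproteasome subunits. The lowest cow differed: LY1 for PSMB8, HY9 for PSMB9 and LY7 for PSMB10.

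ERAP1, the trimming enzyme, had another order of cows. It ran from 31.3 to 110.2 CPM in HY (median 61.1) and from 7.93 to 105 CPM in LY (median 43.8). The lowest value belonged to LY4, at 118 counts, and the next lowest cow was LY1 at 25.3 CPM. LY4 was not low for the pathway as a whole: for 4 of the 8 members it was among the 5 highest cows, and for 2, ERAP1 and B2M (3326 CPM), among the 5 lowest. ERAP2, the related trimming enzyme that lies beside ERAP1 in the gene order of the RefSeq annotation ARS-UCD2.0, was at 29.9 CPM in LY4, 18th of the 21 cows from the top.

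**Figure D1:**
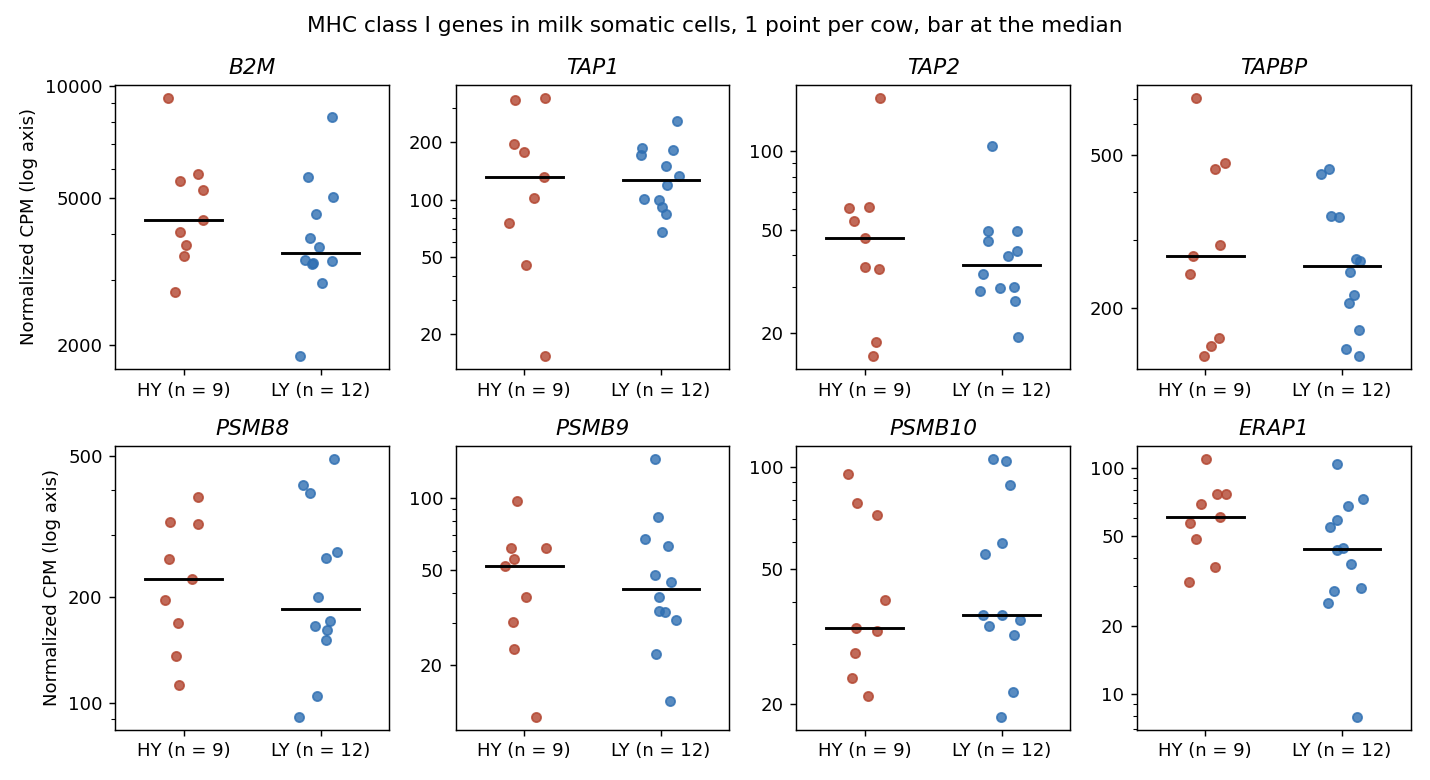
Normalized CPM (log axis) of the 8 members in each cow, 1 point per cow, with HY (n = 9) and LY (n = 12) side by side and a bar at the group median. The groups overlap in every panel, TAP1 of HY9 sits alone at 15.3 CPM, and ERAP1 of LY4 sits alone at 7.93 CPM.

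The spread between cows was widest for TAP1 (highest over lowest cow 22.1-fold), ERAP1 (13.9-fold) and PSMB9 (12.01-fold), and narrowest for TAPBP (4.70-fold) and B2M (4.99-fold). Cows tended to be high or low for many members at once. HY1 was among the 5 highest cows for 7 of the 8 members and LY12 for 5, whereas LY1 was among the 5 lowest cows for 7, HY6 and LY3 for 6 each, and HY9 for 5.

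The members fell into an order of likeness when compared in pairs over the 21 cows on log2(CPM + 0.25). Of the 28 pairs, 14 had a Pearson's r with an adjusted p under 0.05 by permutation (Benjamini-Hochberg over the 28). PSMB8 and PSMB9 were the closest pair (r = 0.950, rho = 0.951, adjusted p = 9.33e-05 by permutation). TAPBP followed TAP2 (r = 0.831, rho = 0.864), TAP1 (r = 0.805, rho = 0.904), PSMB8 (r = 0.815, rho = 0.812) and PSMB9 (r = 0.804, rho = 0.830), each with the same adjusted p. TAP1 and TAP2 had r = 0.792 (rho = 0.857, adjusted p = 0.000175 by permutation). Within the 16 cows of the lower mapping range these 6 values of r were 0.947, 0.866, 0.807, 0.812, 0.812 and 0.827. The 2 cows farthest from the median of 1 gene of each pair were also left out, by PSMB8, TAP2, TAP1, TAPBP, TAPBP and TAP1 in turn. The 6 values were then 0.929, 0.809, 0.869, 0.893, 0.889 and 0.745.

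PSMB10 followed its fellow subunits PSMB8 (r = 0.781, rho = 0.755) and PSMB9 (r = 0.766, rho = 0.791; adjusted p = 0.000160 and 9.33e-05 by permutation), but its r with TAP1 was 0.286 and with TAP2 0.116 (adjusted p = 0.331 and 0.719 by permutation). Within the 16 cows the r of PSMB10 with PSMB8 was 0.788 and with PSMB9 0.772. Without the 2 cows farthest from the median of PSMB8 and of PSMB9, in turn, these were 0.716 and 0.782. B2M had an r of 0.542 with TAPBP and 0.499 with TAP2 (adjusted p = 0.0234 and 0.0438 by permutation, rho = 0.477 and 0.353), which came to 0.354 and 0.283 without the 2 cows farthest from the B2M median, so both rest in part on those cows. By rho neither was past the threshold (adjusted p = 0.0641 and 0.217 by permutation). ERAP1 had no relation past the threshold with any of the other 7 members, with r between -0.253 and 0.240.

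ARS-UCD2.0 was used here for names and neighbours only, as the counts were made on bosTau7. In its gene order TAP2, PSMB8, TAP1 and PSMB9 lie in 1 cluster next to BOLA-DOB. TAPBP, PSMB10, B2M and ERAP1 have other neighbours there. TAPBP, which lies between RGL2 and ZBTB22, had an r of at least 0.804 with each of the 4 cluster genes. Distances between genes were not taken, and whether likeness goes with gene position was not tested.

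**Figure D2:**
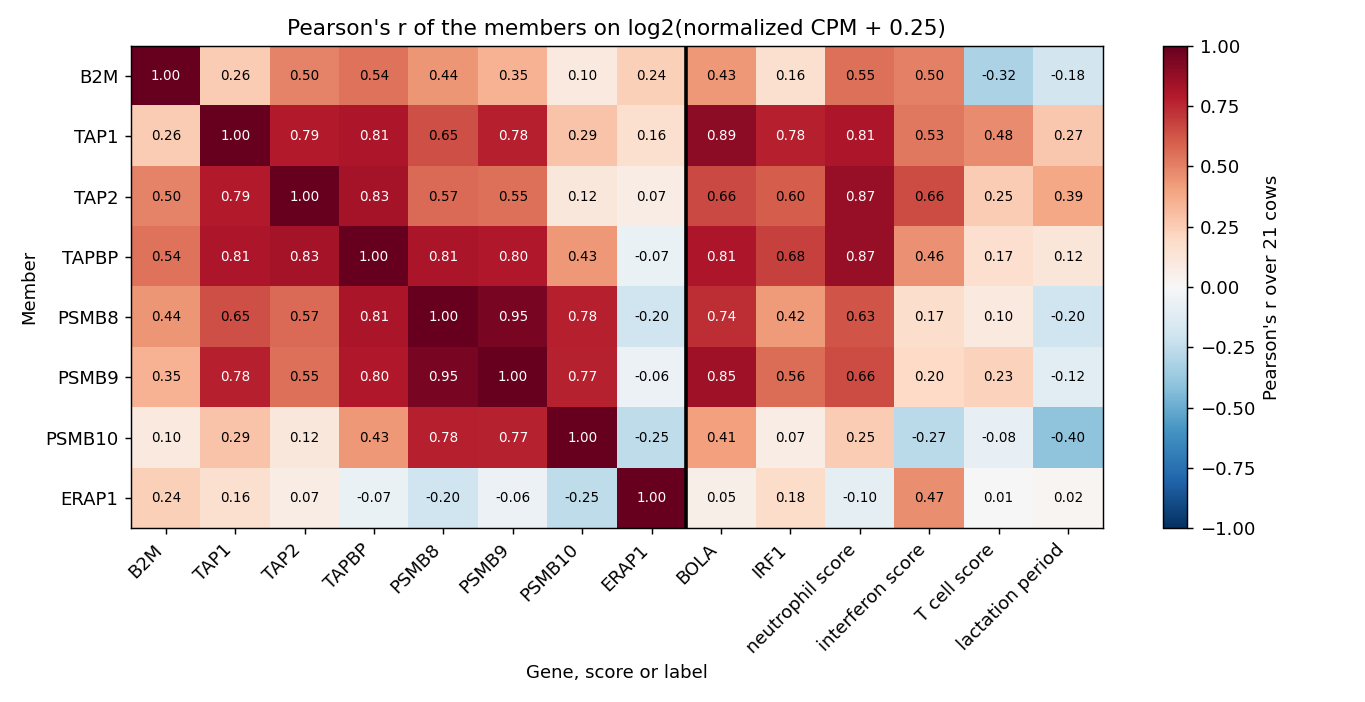
Pearson's r over 21 cows, on log2(CPM + 0.25), between each member (rows) and the other members, the heavy chain row BOLA, the regulator IRF1, the 3 scores and lactation period (columns), with colour from -1 to 1. TAP1, TAP2, TAPBP, PSMB8 and PSMB9 form a block of r from 0.547 to 0.950, and the ERAP1 row stays between -0.253 and 0.468.

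The first comparison asked whether the members differed between HY and LY cows. None of the 8 was called at an adjusted p under 0.05 (edgeR quasi-likelihood test, Benjamini-Hochberg over 12333 genes), against a background of 0% of all genes called. At an unadjusted p under 0.05 there were 580 genes, none of them a member, and the DESeq2 Wald test called 1 gene, also not a member. The log2 differences, HY minus LY, ran from -0.15 (SE 0.340) for PSMB10 to 0.40 (SE 0.311) for ERAP1, and their median was 0.225 against 0.0235 over all genes. B2M differed by 0.26 (SE 0.285), TAP1 by 0.20 (SE 0.374), TAP2 by 0.39 (SE 0.337) and TAPBP by 0.25 (SE 0.285). Each difference was smaller than 2 of its standard errors, so differences of that size were not detectable at this spread. None of the 33 tested genes of the 5 pathway lists (heavy chains, loading and trimming, proteasome partners, regulators, B2M partners) was called either.

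The milk traits were compared by the simple regression of the trait on log2(CPM + 0.25), the model of the study. No member was called for milk yield, fat, protein or solid, and 0% of the 12333 genes were called for each trait. At an unadjusted p under 0.05 there were 307 genes for yield, 284 for fat, 284 for protein and 204 for solid, again with no member among them. With edgeR in place of the regression, 13 genes were called for yield and 4 for solid, and none for fat or protein. ERAP1 had the largest r with yield (0.329), fat (0.336), protein (0.331) and solid (0.295), with unadjusted p from 0.136 to 0.194 in the regressions across all genes and adjusted p = 1. For the other 7 members, r with milk yield lay between -0.145 (PSMB10) and 0.245 (TAP2).

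Along the lactation period, as the slope in log2 CPM per 100 days, no member was called against a background of 0.0243% of genes (3 genes, all lower later in lactation). TAP2 had the largest slope, 0.43 (SE 0.187), with an unadjusted p = 0.0317 and an adjusted p = 0.185 in edgeR. PSMB10 had a slope of -0.36 (SE 0.193, adjusted p = 0.270 in edgeR), and the remaining members lay between -0.15 (PSMB8) and 0.19 (TAP1). The median slope was -0.021 for the members and 0.025 for all genes. The constitutive subunits PSMB5, PSMB6 and PSMB7 had slopes of -0.63, -0.46 and -0.43 with adjusted p = 0.0672, 0.120 and 0.0722 in edgeR, so none was called. No member had a lactation slope that differed between HY and LY (0 of 8 called by the interaction term in edgeR, 0 of 12333 genes, 322 genes and no member at an unadjusted p under 0.05).

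CD8 T cells are the cells that read class I molecules, so the members were set against T cell transcripts. A T cell score was the mean z-score, over the 21 cows, of the 11 genes of a T cell list of 13 that had a row (among them CD3E, ZAP70, CD3D and CD3G). The summed level of the list ran from 102 to 844 CPM in HY and from 88.2 to 1531 CPM in LY. All 3 subset genes CD4, CD8A and CD8B and 6 of 10 cytotoxic genes rose with the score. None of the 8 members was called, against 4.52% of all genes (558 of 12333, edgeR). Slopes ran from -0.18 (SE 0.159) log2 units per unit of score for B2M to 0.37 (SE 0.208) for TAP1, with adjusted p = 0.540 and 0.306 in edgeR.

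TAP1 had the largest r with the T cell score, 0.476 (rho = 0.338, p = 0.0273 and 0.135 by permutation), with an adjusted p = 0.0872 over the 32 relations of 8 members with 3 scores and lactation period. It was 0.329 without the 2 cows farthest from the median score and 0.415 within the 16 cows. The other members had r from -0.318 (B2M) to 0.253 (TAP2). LY12, the highest cow for the immunoproteasome genes, had the second highest T cell score, but LY6, the highest T cell cow, was among the 5 highest cows for only 1 member. Of the proteasome partners, PSMB5 and PSMB7 fell with the T cell score, by 0.60 (SE 0.137) and 0.40 (SE 0.102) log2 units per unit of score (adjusted p = 0.0126 and 0.0229, edgeR). Without HY8 and HY9 neither was called (adjusted p = 0.102 and 0.157, edgeR).

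**Figure D3:**
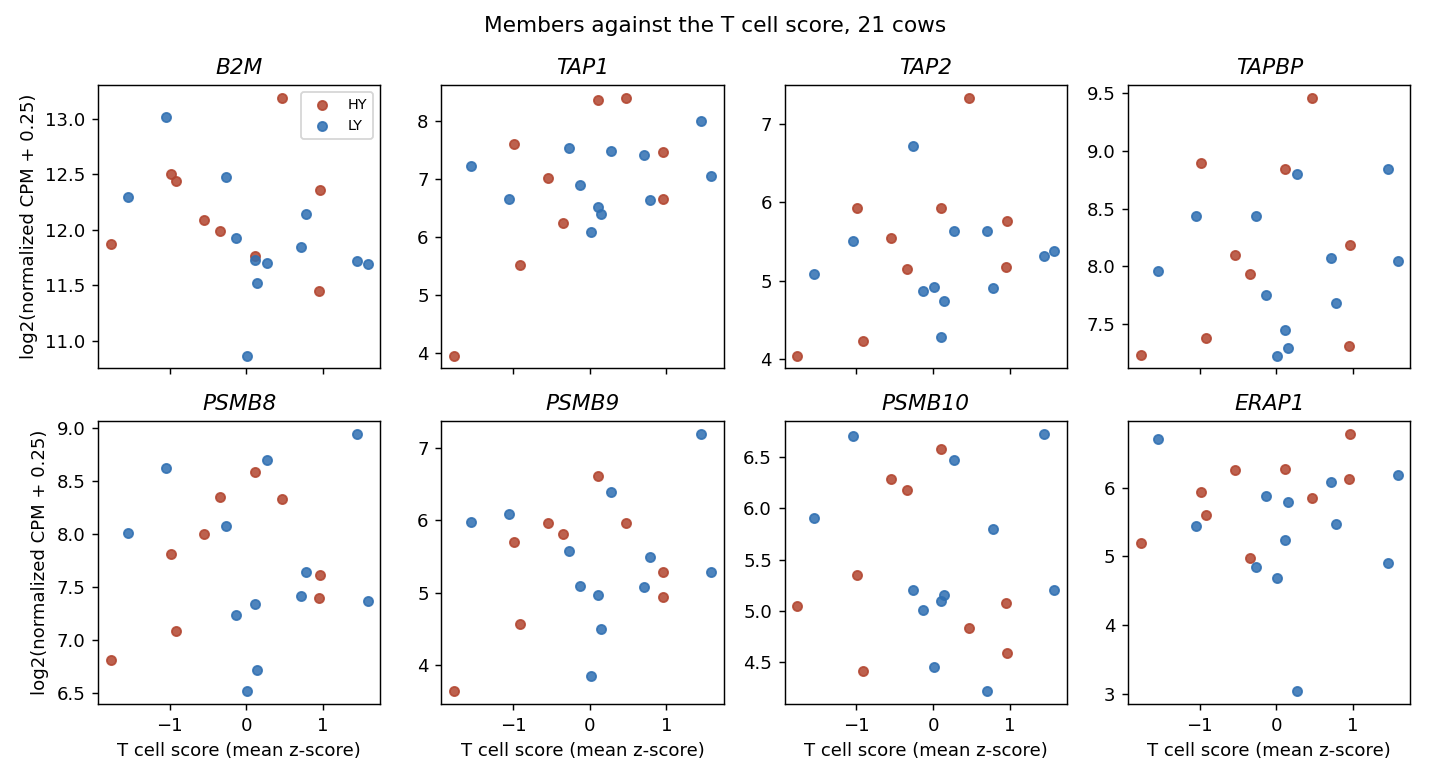
log2(CPM + 0.25) of each member against the T cell score (mean z-score of 11 T cell genes), 1 point per cow, HY and LY coloured. No panel has a relation past the threshold, and Pearson's r runs from -0.318 for B2M to 0.476 for TAP1.

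Class I genes are known as interferon targets, and the interferon score, from the 19 of 26 listed interferon response genes that had a row (among them the antiviral genes MX1, MX2 and ISG15), was compared in the same way. TAP2 rose with the score, by 0.90 (SE 0.205) log2 units per unit of score (adjusted p = 0.0242, edgeR), and was the 1 member of 8 called, against 2.07% of all genes (255 of 12333). At an unadjusted p under 0.05 there were 5 of 8 members, against 21.2% of all genes: TAP2, TAP1 (slope 0.65, SE 0.282), B2M (0.46, SE 0.211), TAPBP (0.48, SE 0.209) and ERAP1 (0.59, SE 0.257), where the last 4 had adjusted p from 0.188 to 0.212 in edgeR. In the fits without HY8 and HY9, TAP2 and B2M stayed under an unadjusted p of 0.05 (p = 0.00047 and 0.0436, edgeR). TAP1, TAPBP and ERAP1 did not (p = 0.061, 0.061 and 0.0758, edgeR). The immunoproteasome subunits had slopes over all cows of 0.06 (PSMB8), 0.03 (PSMB9) and -0.46 (PSMB10), none past the threshold. The median slope was 0.471 for the members and -0.039 for all genes.

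Of the pathway lists, 3 of 7 regulators rose with the interferon score: NFKB1, an NF-kappa-B subunit, by 1.23 (SE 0.209), IRF2, an interferon regulatory factor, by 0.99 (SE 0.243), and CREB1, a transcription factor, by 0.85 (SE 0.207), with adjusted p = 0.00313, 0.0326 and 0.0321 in edgeR. MR1, a class I-like molecule that presents vitamin metabolites, was the 1 of 7 B2M partners to rise (1.08, SE 0.245, adjusted p = 0.0235, edgeR). Without HY8 and HY9, NFKB1 kept its call (adjusted p = 0.0165, edgeR), while IRF2, CREB1 and MR1 had adjusted p = 0.117, 0.115 and 0.0896 in edgeR. No heavy chain, loading or proteasome partner gene was called.

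The call of TAP2 depended on 1 cow and on the covariates. Without HY3 the slope was 0.63 (adjusted p = 0.196, edgeR). It was 0.75 with parity and lactation period in the fit (adjusted p = 0.389, edgeR) and 0.88 without HY8 and HY9 (adjusted p = 0.0759, edgeR). Pearson's r of TAP2 with the interferon score was 0.656 (rho = 0.661, adjusted p = 0.00883 and 0.00690 by permutation), 0.588 without the 2 farthest cows and 0.732 within the 16 cows. TAP1 had r = 0.530 (adjusted p = 0.0542) and rho = 0.674 (adjusted p = 0.00656, both by permutation), with r = 0.464 without the 2 farthest cows and 0.596 within the 16 cows. TAPBP had r = 0.458 (adjusted p = 0.0984) and rho = 0.553 (adjusted p = 0.0424, both by permutation), with r = 0.368 without the 2 farthest cows and 0.599 within the 16 cows. For TAP1 and TAPBP the 2 measures therefore fell on either side of the threshold.

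Neutrophil transcripts were added as a comparison after the values had been seen. The neutrophil score was made from the 8 of 10 listed genes that had a row, among them S100A8, S100A9, S100A12 and CXCR2; CSF3R and FPR1, 2 defining neutrophil receptors, had none. The summed level of the list ran from 1959 to 14619 CPM in HY and from 3519 to 12395 CPM in LY, so every cow had neutrophil transcripts. HY3 had the highest score (1.71) and HY9 the lowest (-1.83). With this score 5 of the 8 members rose, against 9.78% of all genes called (1206 of 12333, of which 829 rose; edgeR).

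The 5 were the peptide transporter, tapasin and 2 immunoproteasome subunits. TAP1 rose by 0.92 (SE 0.176), TAP2 by 0.82 (SE 0.107), TAPBP by 0.69 (SE 0.0985), PSMB9 by 0.74 (SE 0.203) and PSMB8 by 0.54 (SE 0.154) log2 units per unit of score, with adjusted p = 0.0012, 1.66e-05, 5.94e-05, 0.0205 and 0.0259 in edgeR. B2M had a slope of 0.36 (SE 0.140, adjusted p = 0.111, edgeR), PSMB10 of 0.34 (SE 0.224, adjusted p = 0.374, edgeR) and ERAP1 of -0.0059 (SE 0.216, adjusted p = 0.992, edgeR). The median slope was 0.613 for the members and -0.0235 for all genes. Without HY9, the cow lowest for both the score and TAP1, the calls that held were TAP1, TAP2 and TAPBP, while PSMB8 and PSMB9 had adjusted p = 0.0711 and 0.0899 in edgeR. The slopes of PSMB8 and PSMB9 without HY9 were 0.53 and 0.63. Without both HY8 and HY9, PSMB9 alone of the 5 missed the threshold (slope 0.68, adjusted p = 0.0616, edgeR), and within the 16 cows PSMB8 alone did (slope 0.49, adjusted p = 0.0656, edgeR). With a score of 6 of the 8 neutrophil genes, PSMB8 and PSMB9 had adjusted p = 0.0554 and 0.0645 in edgeR.

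As correlations, TAPBP (r = 0.874, rho = 0.894), TAP2 (r = 0.870, rho = 0.813) and TAP1 (r = 0.810, rho = 0.830) followed the neutrophil score most closely, with adjusted p from 0.000160 to 0.000213 by permutation. PSMB9 (r = 0.656, rho = 0.718), PSMB8 (r = 0.632, rho = 0.679) and B2M (r = 0.554, rho = 0.495) came next, with adjusted p of r = 0.00883, 0.0107 and 0.0421 by permutation. For B2M the adjusted p of rho was 0.0752 by permutation, so its 2 measures fell on either side of the threshold. Without the 2 farthest cows, r for these 6 genes was 0.837, 0.784, 0.666, 0.567, 0.574 and 0.463, and within the 16 cows 0.879, 0.888, 0.824, 0.690, 0.647 and 0.586. PSMB10 (r = 0.251) and ERAP1 (r = -0.100) had no relation past the threshold. No member had a neutrophil slope shown to differ between HY and LY (0 of 8 members and 0 of 12333 genes called by the interaction term in edgeR, and 2157 genes but no member at an unadjusted p under 0.05).

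**Figure D4:**
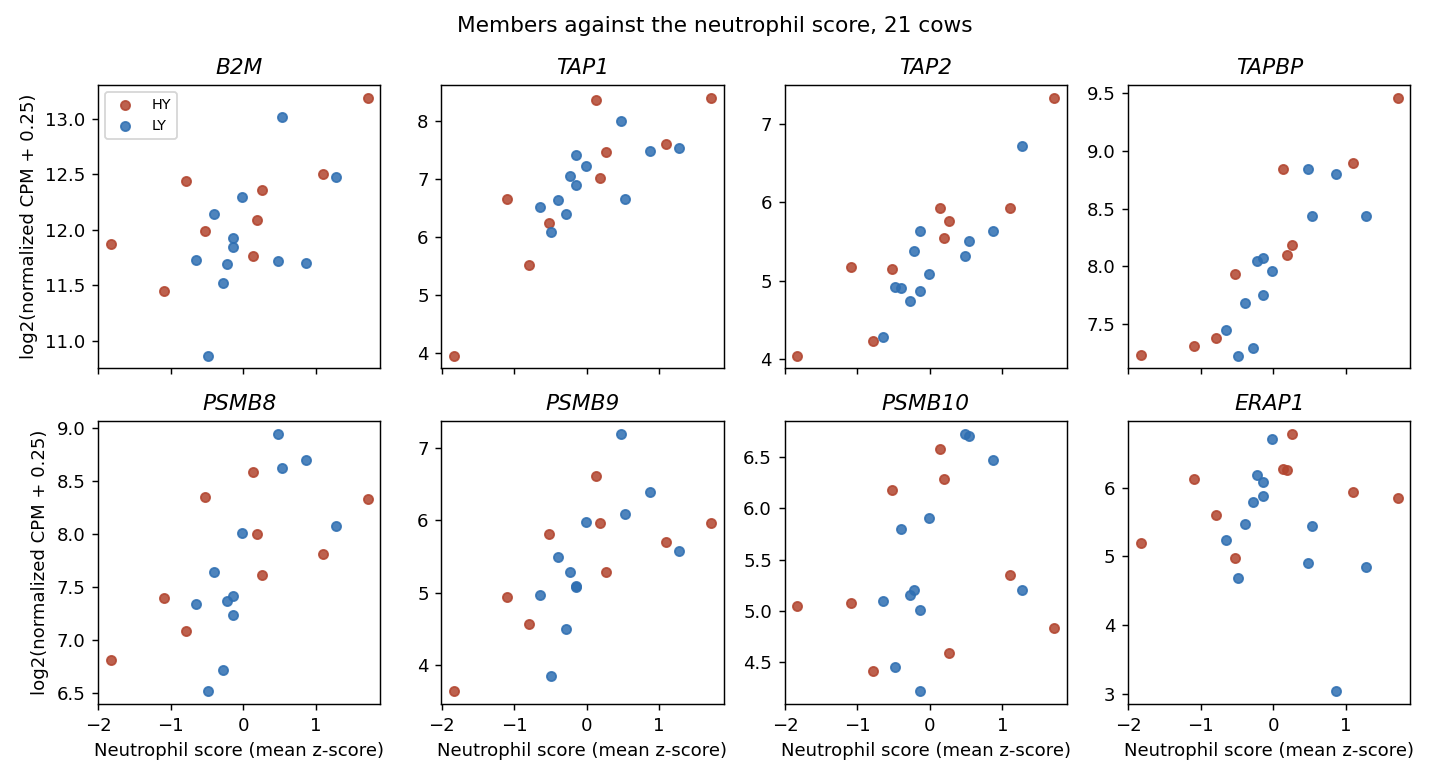
log2(CPM + 0.25) of each member against the neutrophil score (mean z-score of 8 neutrophil genes), 1 point per cow, HY and LY coloured. TAP1, TAP2 and TAPBP climb from HY9 at the far left to HY3 at the far right (r from 0.810 to 0.874), whereas ERAP1 is flat (r = -0.100).

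The neutrophil and T cell slopes were then compared in 1 fit with both scores, each in SD units. TAP1, TAP2, TAPBP, PSMB8 and PSMB9 kept their calls for the neutrophil score (5 of 8 members, 9.16% of all genes), and no member was called for the T cell score (3.32% of all genes). The difference between the slopes, neutrophil minus T cell, was called for TAP2 (0.55, SE 0.137, adjusted p = 0.0231, edgeR) and TAPBP (0.53, SE 0.129, adjusted p = 0.0190, edgeR), against 4.37% of all genes. For TAP1 the slopes were 0.75 (SE 0.124) and 0.33 (SE 0.115), and their difference, 0.42 (SE 0.173), had an adjusted p = 0.193 in edgeR, so the 2 slopes of TAP1 were not shown to differ. B2M had slopes of opposite sign, 0.33 (SE 0.113) and -0.21 (SE 0.116), with a difference of 0.55 (SE 0.176, adjusted p = 0.0798, edgeR). Without HY8 and HY9 the calls for the neutrophil score were those of TAP1, TAP2, TAPBP and PSMB8, and the difference between the slopes was again called for TAP2 (adjusted p = 0.0137, edgeR) and TAPBP (adjusted p = 0.00753, edgeR).

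The interferon and neutrophil scores were themselves related (r = 0.516, rho = 0.605, adjusted p = 0.0863 and 0.0355 by permutation over 15 pairs of scores; r = 0.504 without the 2 farthest cows and 0.654 within the 16 cows), whereas the T cell score had r = 0.143 with the neutrophil score and 0.101 with the interferon score. With the neutrophil score in the fit, the interferon slope of TAP2 was 0.36 (adjusted p = 0.228, edgeR) and no member was called. Of the interferon list, 5 of 19 genes rose with the neutrophil score (IFIT3, IRF7, IRF9, ISG15 and XAF1), and of the interferon gamma list 0 of 12. The part that neutrophil number has in the levels of the members was not tested.

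Genes around the members in the pathway split in the same comparison. Of 4 heavy chain rows, BOLA rose with the neutrophil score by 1.07 (SE 0.200, adjusted p = 0.000943, edgeR) and BOLA-NC1, a nonclassical heavy chain, by 0.95 (SE 0.219, adjusted p = 0.00604, edgeR). Heavy chain genes are near-identical copies of each other, so their counts are uncertain. Of 9 loading and trimming genes, the tapasin relative TAPBPL rose (0.94, SE 0.149, adjusted p = 0.000195, edgeR), and the other 8, among them the chaperones CALR, CANX and PDIA3 and the peptidase ERAP2, were not called. Of 7 regulators, IRF1, an interferon-induced activator of class I genes, rose by 1.16 (SE 0.358, adjusted p = 0.0409, edgeR), NFKB1 by 0.87 (SE 0.167, adjusted p = 0.0012, edgeR) and RELA, its NF-kappa-B partner, by 0.49 (SE 0.128, adjusted p = 0.0142, edgeR). None of 6 proteasome partners and none of 7 B2M partners was called. The call of IRF1 ended with the T cell score in the fit (adjusted p = 0.0508, edgeR) and without HY8 and HY9 (slope 0.94, adjusted p = 0.130, edgeR), whereas BOLA, BOLA-NC1, TAPBPL, NFKB1 and RELA were called in both of these fits.

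BOLA also followed the members one by one. Over the 21 cows its r was 0.892 with TAP1 (rho = 0.868), 0.846 with PSMB9 (rho = 0.760), 0.809 with TAPBP (rho = 0.906), 0.737 with PSMB8 (rho = 0.732) and 0.657 with TAP2 (rho = 0.731), all 5 with an adjusted p of at most 0.00379 by permutation over 16 relations. Without the 2 farthest cows these were 0.798, 0.738, 0.853, 0.679 and 0.688, and within the 16 cows 0.900, 0.853, 0.835, 0.747 and 0.753. B2M, the partner chain of BOLA in the class I molecule, had an r of 0.432 with it (rho = 0.421, adjusted p = 0.0807 by permutation), 0.670 without the 2 farthest cows and 0.544 within the 16 cows. IRF1 passed the threshold with TAP1 (r = 0.775, rho = 0.865), TAPBP (r = 0.681, rho = 0.753), TAP2 (r = 0.603, rho = 0.695) and PSMB9 (r = 0.559, rho = 0.578), with adjusted p from 8e-05 to 0.0157 by permutation. For IRF1 these were 0.749, 0.617, 0.435 and 0.426 without the 2 farthest cows, and 0.754, 0.708, 0.654 and 0.591 within the 16 cows. Between IRF1 and PSMB8 rho alone passed the threshold (r = 0.425, rho = 0.482, adjusted p = 0.0807 and 0.046 by permutation). Their r was 0.306 without the 2 farthest cows and 0.452 within the 16 cows. The level of IRF1 was low, between 0.196 CPM in HY9 and 7.30 CPM in HY1.

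Macrophage and epithelial scores, also added after the values had been seen, showed less. With the macrophage score no member was called, against 15.9% of all genes. With the epithelium score TAP1 alone was called and fell by 0.51 (SE 0.177) log2 units per unit of score (adjusted p = 0.0426, edgeR), against 21.1% of all genes, and the median slope of the members was -0.209 against -0.0518 for all genes. Without HY8 and HY9 the slope of TAP1 was -0.37 (adjusted p = 0.141, edgeR) and no member was called. The counts of members called were thus below or near the background for these scores. Of the pathway lists, PSMB5 rose with the epithelium score among 6 proteasome partners. CALR, HSPA5 and PDIA3 fell among 9 loading and trimming genes, IRF1 and RFX5 among 7 regulators and CD1D among 7 B2M partners. Without HY8 and HY9, CALR and IRF1 kept their calls (adjusted p = 0.00068 and 0.0488, edgeR). PSMB5, HSPA5, PDIA3, RFX5 and CD1D had adjusted p = 0.396, 0.0765, 0.0825, 0.0502 and 0.218 in edgeR. With the epithelium score as a covariate, the 5 calls along the neutrophil score held.

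The balance of immunoproteasome and constitutive subunits was taken as a log2 ratio of CPM in each cow, which does not depend on the scaling of the library; its absolute value is not interpretable without transcript lengths, and only differences between cows are compared. PSMB8 to PSMB5 ran from -1.15 in HY9 to 2.82 in HY3 among HY cows (median 1.83) and from 0.67 in LY1 to 3.10 in LY12 among LY cows (median 1.46). PSMB9 to PSMB6 ran from -3.87 in HY9 to -0.07 in HY3 (median -1.36) and from -2.34 in LY1 to -0.20 in LY12 (median -1.23). PSMB10 to PSMB7 ran from -3.14 in HY6 to -0.55 in HY1 (median -1.77) and from -2.18 in LY7 to 0.03 in LY12 (median -1.35). The groups overlapped for all 3 ratios, and the differences in their means, HY minus LY, were -0.21, -0.25 and -0.41 (p = 0.622, 0.538 and 0.218, exact permutation test, two-sided).

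Unlike the members alone, 2 of the ratios rose with the T cell score over all cows. PSMB8 to PSMB5 had r = 0.644 (rho = 0.644, adjusted p = 0.0071 by permutation over 15 relations) and PSMB9 to PSMB6 r = 0.564 (rho = 0.522, adjusted p = 0.0212 by permutation). With the interferon score they had r = 0.547 and 0.590 (rho = 0.639 and 0.679, adjusted p = 0.0254 and 0.0178 by permutation), and with the neutrophil score 0.701 and 0.699 (rho = 0.581 and 0.548, adjusted p = 0.00285 for both by permutation). PSMB5, the denominator of the first ratio, fell with the T cell score over all cows, while PSMB8 had a slope of 0.09 (SE 0.163). PSMB5 also rose with the epithelium score over all cows. PSMB10 to PSMB7 had no relation past the threshold, with r = 0.391, -0.00961 and 0.427 in the same order.

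Without the 2 farthest cows the 6 values of r for PSMB8 to PSMB5 and PSMB9 to PSMB6 were 0.566 and 0.475 with the T cell score, 0.462 and 0.516 with the interferon score, and 0.455 and 0.446 with the neutrophil score. Within the 16 cows they were 0.517 and 0.455, 0.682 and 0.685, and 0.769 and 0.751. Without HY8 and HY9 they were 0.517 and 0.392, 0.508 and 0.569, and 0.542 and 0.537. HY9, lowest for both ratios, had 56.6% of its counts on the epithelium list. Of the 12 relations without the neutrophil score, 4 were past the threshold with all cows, and 1 without HY3, HY6 or HY9 in turn. Within the 16 cows 2 were past it, those of these ratios with the interferon score. The relations with the T cell score were not past it there. With lactation period r was 0.356, 0.329 and 0.0068 for the 3 ratios, none past the threshold.

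**Figure D5:**
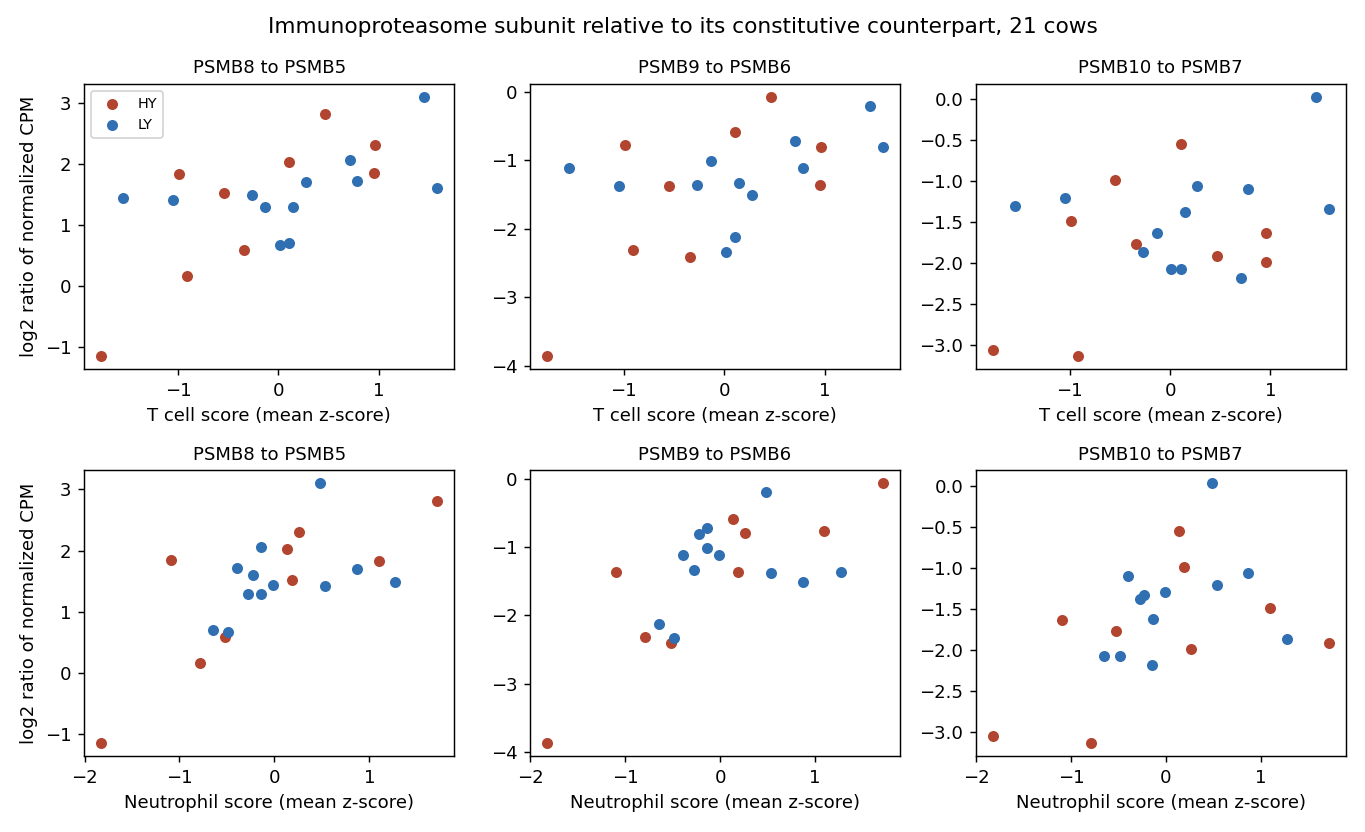
log2 ratio of PSMB8 to PSMB5, PSMB9 to PSMB6 and PSMB10 to PSMB7 in each cow against the T cell score (top) and the neutrophil score (bottom), HY and LY coloured. Over all cows the first 2 ratios rise with both scores (r from 0.564 to 0.701), with HY9 at the lower left in each. The third has r = 0.391 and 0.427.

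The 5 genes whose order over the 21 cows was most like the mean z-score of the 8 members, among 9620 other genes with a mean count of at least 10, were LRP10 (rho = 0.919), EFHD2 (rho = 0.918), RHOG (rho = 0.918), CSNK1D (rho = 0.914) and MNT (rho = 0.914). LRP10 is a lipoprotein receptor relative, EFHD2 a calcium-binding protein, CSNK1D a casein kinase, and MNT a transcriptional repressor. These values were picked as the highest of many and are a description with no test.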

How the data were processed

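The authors sequenced paired-end libraries on an Illumina HiSeq instrument, trimmed reads with Trimmomatic, aligned them to bosTau7 with TopHat2 and Bowtie2, and counted them per gene with HTSeq; tool versions and the strand setting are not given in the sources used here. The deposited values are raw counts per gene, 1 table per cow. HTSeq discards reads that overlap several genes (0.302% to 1.35% as a percent of gene counts here) and, by default, reads with several alignments, which lowers counts of near-identical copies. A row without a gene name (0.0360% to 0.151% of counts) and 5 summary rows were left out.

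Counts were fitted with edgeR 4.0.16 (R 4.3.3), TMM and the quasi-likelihood test over the 12333 genes with a count, called at a Benjamini-Hochberg adjusted p under 0.05. Traits were regressed on log2(CPM + 0.25). Scores are mean z-scores of listed genes with a mean count of at least 10. Correlations used 100000 resamples (SciPy 1.17.1), two-sided; 1e-05 is the smallest p they give. DESeq2 1.42.0, other scalings, filters, covariates and cows left out were alternatives. The fits were tested on simulated data. Members and lists were chosen with earlier results of these data known. By rule, the genes named were all members, pathway genes called where a member was called, those of highest or lowest level, the 5 most alike and up to 4 examples of each other list; further genes (such as ERAP2 and the interferon genes that rose) were named after their values were seen. Each cow is 1 animal. Of the 8 neutrophil score genes, 1 is not named here.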

Additional observations from a re-analysis of the deposited data

How the results depend on the processing

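No member changed direction past a threshold under any alternative, and no member was called between HY and LY, along lactation period, along the T cell score or along a milk trait under any alternative run. Along the interferon score the count of members called, 1, was 0 with parity and lactation period as covariates, 0 without HY8 and HY9 and 0 with the neutrophil score as a covariate, and from 0 (without HY3) to 1 when each cow was left out. Along the neutrophil score the count, 5, was 3 with a score of 6 genes (TLR4 and ALOX5AP left out; PSMB8 and PSMB9 lost their calls) and from 3 (without HY9) to 5 when each cow was left out. Of 24 relations of members with the T cell score, interferon score and lactation period 1 was past the threshold by Pearson's r, and 7 of 32 once the neutrophil score was added. Of the ratio relations, 4 of 12 were past the threshold, 2 within the 16 cows, and 1 (without HY3, HY6 or HY9) to 4 when each cow was left out. The causes were not tested. Counts over all genes moved more: along lactation period 3 genes, but 865 with DESeq2, 0 with a mean count of at least 10, 0 within the 16 cows, 1 with parity in the fit, and 0 to 428 (without LY9) when each cow was left out. Along the T cell score there were 558, but 164 with parity and lactation period, 292 with the epithelium score, 92 within the 16 cows, 220 without HY8 and HY9, 960 with DESeq2, and 222 (without HY9) to 998 (without LY5) when each cow was left out. Along the interferon score there were 255, but 13 with parity and lactation period, 126 within the 16 cows, 27 with the neutrophil score, 50 without HY8 and HY9, 740 with DESeq2, and 34 (without HY3) to 591 (without LY2) when each cow was left out. No paired analysis was possible because the labels give no replicate numbers shared between the groups. With 9 and 12 cows and SEs of 0.285 to 0.374 on the log2 scale, small group differences of the members were not detectable. HY9, with 62 counts of PSMB9, has the least precise values.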

Other observations

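No member met the rule used for a sample far from the others among the 9 HY cows. That rule was not applied to the 12 LY cows, so the low ERAP1 of LY4 (7.93 CPM, next lowest cow 25.3 CPM) is given as a value with no test. In the same cow B2M was at 3326 CPM, among the 5 lowest cows, TAP1 at 181 CPM (6th of 21 from the top), PSMB9 at 83.5 CPM (the third) and BOLA at 1325 CPM (the fifth).

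ERAP1 and ERAP2, neighbours with related functions, had r = 0.315 over the 21 cows (rho = 0.251, p = 0.162 and 0.274 by permutation), with r = 0.382 without the 2 cows farthest from the ERAP1 median and 0.295 within the 16 cows. LY1 was 20th from the top for ERAP1 (25.3 CPM) and second for ERAP2 (124.5 CPM).

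With the macrophage score, where no member was called, CALR and THOP1 rose among 9 loading and trimming genes and FCGRT and HFE among 7 B2M partners, against 15.9% of all genes called. HFE was low, with no counts in LY2, HY6 and HY9. Without HY8 and HY9 it was not called (adjusted p = 0.0653, edgeR), while CALR, THOP1 and FCGRT were. Of 10 class II genes 5 rose and 1, BOLA-DYA, fell. These genes were named after their values were seen.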
